A study of Mus musculus with 4 samples.

Results

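The 33 ribosome biogenesis genes described here encode nucleolar rRNA processing factors, subunits or activators of RNA polymerase I and ribosome assembly factors. They were taken by symbol from a table of read counts. The rule names no measured value, but the genes were chosen with earlier results of these data known. All 33 had a row among the 24421 genes of the table, and all 33 passed the filter on low counts that left 14140 genes for testing.

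Ribosomes are built mainly in the nucleolus, where RNA polymerase I transcribes the ribosomal RNA (rRNA) precursor and a large set of factors cuts, modifies and folds it while ribosomal proteins are added. Small nucleolar ribonucleoproteins (snoRNPs) guide the modification of rRNA, and assembly factors then carry the precursors of the small and the large subunit out to the cytoplasm. In blood stem and progenitor cells this activity is known to be tied to cell growth and division, and inherited defects of it are known to cause bone marrow failure.

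The samples were LSK cells, the bone marrow fraction without lineage markers and with Kit and Sca1, sorted from Zfp521-/- mice (KO) and from control littermates labelled wild type (WT). Zfp521 encodes a zinc finger transcription cofactor. There were 2 WT and 2 KO libraries, with no further treatment or age given. The labels speak of pooled material and tie no sample to an animal, so the p-values rest on a spread between samples that may be technical in the KO pair. The WT libraries differed in sex pattern, as given below, so their spread is also one between mice.

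Library totals lay between 17787425 and 29863594 counts, where 3 counts equal 0.108 to 0.152 CPM (counts scaled to a common library size with TMM factors), for counting error only. Zfp521 was at 56.1 and 57.5 CPM in WT and at 13.9 and 10.9 CPM in KO (log2 change -2.19, SE 0.23, edgeR quasi-likelihood test, adjusted p = 0.000491). The whole gene is counted, so this does not show which part was deleted. WT replicate 2 had 606 reads of Xist and 5606 of 4 Y-linked genes, against 160613 to 230977 and 9 to 14 in the other 3 libraries, so the WT group mixed a library of male and one of female pattern. Kit was at 617 and 708 CPM in WT and 697 and 702 CPM in KO. Of 12 genes of LSK identity 1, Cd34, fell (log2 change -0.61, adjusted p = 0.0408), named here after its value was seen.

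The ribosome biogenesis genes had slightly lower mean levels in KO almost throughout, and few passed the test. The fold change was negative for 32 of 33 genes, with a median of -0.37 on the log2 scale and a range from -0.83 for Nop10 to 0.03 for Pes1. Over all 14140 genes tested the median was 0.02, and 6894 were negative. At an adjusted p under 0.05, 4 of the 33 genes (12.1%) fell in KO, which were Npm1, Dkc1, Gar1 and Nop10. The same call was made for 3.01% of all genes tested. None of the 33 rose, against 3.77% of all genes, and none was called higher in DESeq2. At an unadjusted p under 0.05 in edgeR none was higher, against 1846 of the 14140 genes tested. Among the 425 genes that fell, whose median was -0.88, Nop10 ranked 250 by size, Gar1 303, Npm1 326 and Dkc1 348. In bulk RNA, fewer cells of a type and less RNA per cell cannot be told apart.

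Both KO libraries lay below both WT libraries for 22 of the 33 genes, against 27.6% of all genes tested. They lay above them for none, against 4079 of the 14140 genes tested. At an unadjusted p under 0.05, 12 were lower, against 11.4% of all genes. DESeq2 called 6 lower, against 5.70% of all genes, the same 4 with Ddx21 and Fbl added.

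The number of calls depended on which libraries were kept. Leaving out a library leaves 1 in its group, so the p-value then rests on the spread of the other pair alone, and the lone library is assumed to vary like it. Without WT replicate 1 no gene of the 33 was called lower (0.642% of all genes tested), 3 were lower at an unadjusted p under 0.05, and the median was -0.25. Without WT replicate 2 it was 1, Npm1 (0.685% of all genes; median -0.52). Without KO replicate 1 there were 10 (7.88% of all genes; median -0.52), and without KO replicate 2 there were 3 (2.84% of all genes; median -0.20). WT replicate 1 was the highest library for 30 of the 33 genes, against 27.0% of all genes tested. KO replicate 2 was the lowest for 27, against 30.8% of all genes tested. The median level thus stepped down through all 4 libraries, and libraries of the same genotype also stood apart from each other.

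**Figure D1:**
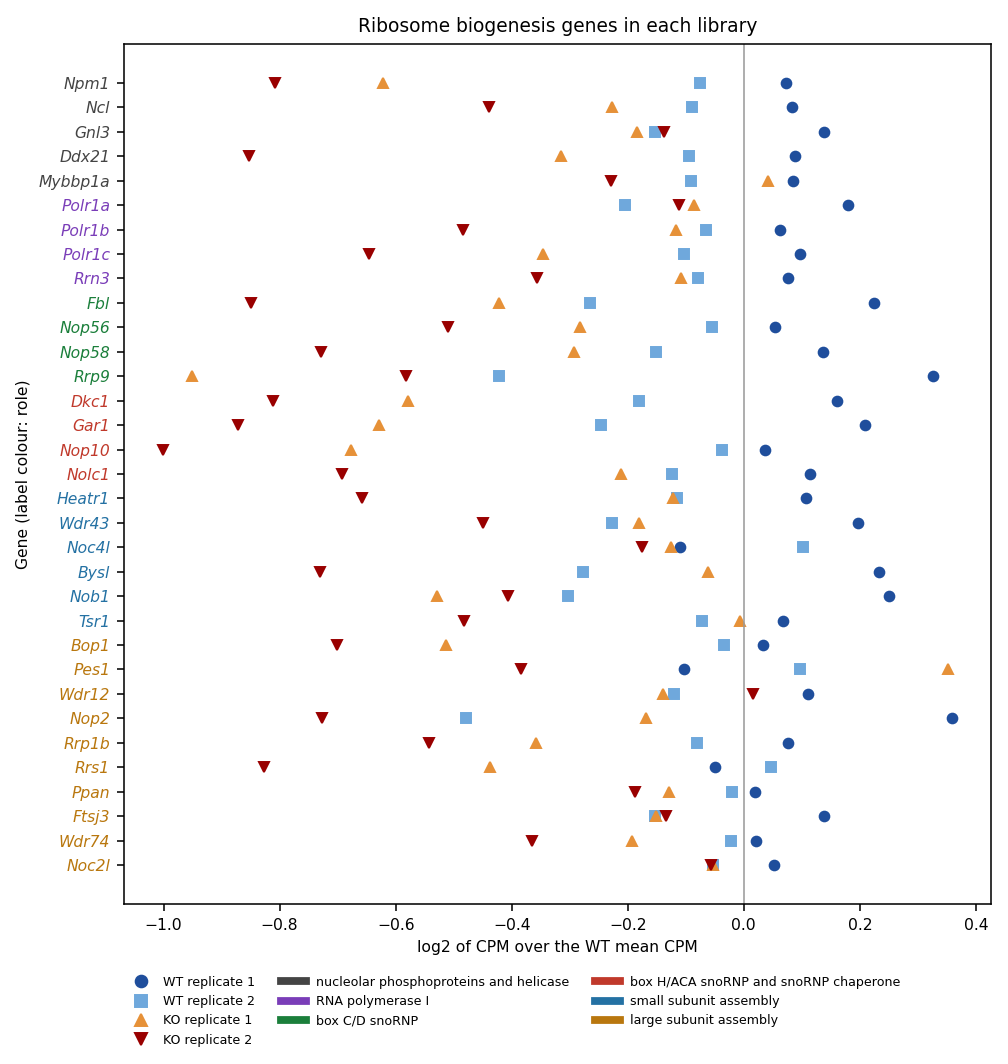
CPM of each of the 33 genes in each library, as log2 of its ratio to the WT mean (x axis), with 1 row per gene and label colours for roles. WT replicate 1 lies farthest to the right for 30 genes (27.0% of all genes tested) and KO replicate 2 farthest to the left for 27 (30.8%). Npm1, Dkc1, Gar1 and Nop10 are among the genes with the widest gap between the KO and WT points.

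Of the 4 genes that fell, 3 belong to the box H/ACA snoRNP, the particle that converts uridine to pseudouridine in rRNA at sites chosen by its guide RNA. Its core holds the pseudouridine synthase dyskerin, encoded by Dkc1, with Gar1, Nop10 and Nhp2, and the same proteins are part of telomerase. The 33 genes include 3 of these core genes, and all 3 fell. Nop10, a small core protein gene of 2 exon blocks (chr2:112261926-112263269, plus strand, GRCm38), was at 126 and 120 CPM in WT and at 77.0 and 61.5 CPM in KO. Its mean went from 123 ± 4.48 to 69.3 ± 11.0 CPM (SD, n = 2 each), a 1.78-fold lower level (log2 fold change -0.83, SE 0.17, edgeR adjusted p = 0.0189). The groups did not overlap, and both KO values lay far below the narrow WT pair.

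Gar1 (chr3:129824912-129831396, minus strand, 7 exon blocks) was at 127 and 92.7 CPM in WT and at 71.1 and 60.1 CPM in KO, with means of 110 ± 24.3 and 65.6 ± 7.79 CPM (SD, n = 2 each). It fell by 0.74 on the log2 scale (SE 0.19, edgeR adjusted p = 0.0433), with no overlap but a wide spread between the WT libraries. Dkc1 (chrX:75095854-75109777, plus strand, 15 exon blocks) was at 296 and 233 CPM in WT and 177 and 151 CPM in KO, with means of 265 ± 44.2 and 164 ± 18.7 CPM (SD, n = 2 each; log2 change -0.69, SE 0.17, edgeR adjusted p = 0.0329). Its groups did not overlap either. Dkc1 lies on the X chromosome, and its lower WT value came from the library of male pattern; the part of sex in its level was not tested. Without that library the log2 fold change of Dkc1 was -0.87 (adjusted p = 0.0645), and without WT replicate 1 it was -0.51 (adjusted p = 0.350). Gar1 and Nop10 likewise missed the threshold without either WT library, with adjusted p from 0.0645 to 0.442, and Gar1 also without KO replicate 2 (adjusted p = 0.0645). With upper quartile factors in place of TMM, Dkc1 (adjusted p = 0.050005) and Gar1 (adjusted p = 0.0628) missed it as well.

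Nhp2, the fourth core protein, belongs to the wider list of biogenesis genes and was looked up after the values of the others were seen. It did not pass, at 49.2 and 28.2 CPM in WT and 37.2 and 20.3 CPM in KO (log2 change -0.43, SE 0.33, adjusted p = 0.442). Its groups overlapped, since KO replicate 1 lay between the WT libraries. Per kb of exon, which allows levels to be compared between genes, Nop10, Dkc1 and Gar1 were close to one another in WT, at 111, 94.4 and 86.5 CPM per kb, with Nhp2 at 37.1. In KO they were at 62.5, 58.5, 51.6 and 27.6 CPM per kb. Terc, the telomerase RNA, which was also looked up afterwards, had few reads, at 2.37 and 1.89 CPM in WT and 3.71 and 1.17 CPM in KO (adjusted p = 0.897). Nolc1, a nucleolar chaperone of snoRNPs, was at 100 and 85.2 CPM in WT and 80.2 and 57.4 CPM in KO (log2 change -0.43, SE 0.20, adjusted p = 0.206), without overlap of the groups.

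Since these 3 core genes fell together, the 250 bases before their RefSeq start sites (build GRCm38.p6) are shown, written in the direction of transcription. Capitals mark matches on either strand to the 4 motifs searched; those found were the hexamers CACGTG, the E-box that Myc and its relatives are known to bind, and CGGAAG, a core of Ets factor sites. Rrn3 is added because its stretch holds E-boxes.
Dkc1, chrX:75095604-75095853, plus strand: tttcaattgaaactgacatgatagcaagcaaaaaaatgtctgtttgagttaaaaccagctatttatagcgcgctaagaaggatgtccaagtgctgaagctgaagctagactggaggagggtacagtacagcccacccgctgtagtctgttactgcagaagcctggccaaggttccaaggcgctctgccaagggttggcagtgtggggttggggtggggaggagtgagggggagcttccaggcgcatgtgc
Gar1, chr3:129831397-129831646, minus strand: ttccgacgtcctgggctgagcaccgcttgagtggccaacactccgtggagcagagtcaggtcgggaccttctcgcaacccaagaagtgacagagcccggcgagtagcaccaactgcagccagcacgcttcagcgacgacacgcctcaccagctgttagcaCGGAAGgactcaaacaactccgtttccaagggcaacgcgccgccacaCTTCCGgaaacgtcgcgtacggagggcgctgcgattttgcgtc
Nop10, chr2:112261676-112261925, plus strand: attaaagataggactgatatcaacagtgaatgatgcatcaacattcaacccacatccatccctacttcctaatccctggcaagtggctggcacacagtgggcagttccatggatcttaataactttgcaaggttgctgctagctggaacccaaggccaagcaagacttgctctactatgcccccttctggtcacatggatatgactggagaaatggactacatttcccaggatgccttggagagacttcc
Rrn3, chr16:13780449-13780698, plus strand: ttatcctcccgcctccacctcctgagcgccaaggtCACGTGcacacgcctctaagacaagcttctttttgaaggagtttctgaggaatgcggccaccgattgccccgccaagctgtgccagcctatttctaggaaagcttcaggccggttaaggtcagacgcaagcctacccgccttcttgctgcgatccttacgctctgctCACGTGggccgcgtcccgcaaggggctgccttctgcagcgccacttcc

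In these stretches Gar1 has CGGAAG on its own strand beginning 90 bases before the start and on the other strand beginning 43 bases before it. Dkc1 and Nop10 hold neither hexamer wholly before the start. Rrn3 has the E-box 215 and 48 bases before its start. RefSeq windows of 300 bases, the 250 before and 50 after the start, were at hand for 29 of the 33 genes and not for Npm1, Fbl, Bop1 and Rrs1. An E-box was in the window of 6 of 29 genes (20.7%), against 11.4% of the 10593 tested genes with a window. Those genes were Mybbp1a, Nop2, Pes1, Rrn3, Tsr1 and Wdr43, none of which passed the test. CGGAAG was in 15 of 29 (51.7%), against 33.3% of tested genes. Among the 15 were Gar1, Nop10 and Rrn3, and for Nop10 the match runs across the start, beyond the stretch shown. The window also held the pentamer CCAAT in 6 of 29 (20.7%), against 42.4%, with Dkc1 and Nop10 among the 6 through matches after the start. A heptamer known from YY1 sites, AAGATGG, was in 2 of 29 (6.90%), against 8.26%. In the wider list of biogenesis genes, 104 had a window. Of these, 18.3% held an E-box, 68.3% CGGAAG, 43.3% CCAAT and 4.81% AAGATGG. Some genes have more than 1 window and were counted as holding a motif where any window did. No matches overlap in the sequences shown, and a match is a description of letters only.

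Npm1 was the fourth gene that fell and the most abundant of the 33. It encodes nucleophosmin, a nucleolar histone chaperone that takes part in ribosome export and is often mutated in acute myeloid leukaemia. Its gene spans chr11:33152287-33163206 on the minus strand, with 13 exon blocks. It was at 2462 and 2223 CPM in WT and at 1522 and 1337 CPM in KO. Means were 2343 ± 169 and 1430 ± 130 CPM (SD, n = 2 each), a 1.64-fold lower level (log2 fold change -0.71, SE 0.14, edgeR adjusted p = 0.0134). The groups were well apart. The call was lost without WT replicate 1 (log2 fold change -0.64, adjusted p = 0.0901), and under every other alternative tried it held. Processed pseudogenes of Npm1 are known, and how the counting treated reads that match them is not stated, so its count is uncertain to that extent.

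None of the other 4 genes in the group of nucleolar proteins passed in edgeR, while DESeq2 called Ddx21 lower. Ncl, nucleolin, which binds rRNA precursors, was at 1941 and 1722 CPM in WT and 1565 and 1351 CPM in KO (log2 change -0.33, SE 0.14, adjusted p = 0.173). Ddx21, a nucleolar RNA helicase, was at 220 and 194 CPM in WT and 166 and 115 CPM in KO (log2 change -0.56, SE 0.19, adjusted p = 0.0940). Neither pair of groups overlapped, but for Ddx21 the KO libraries lay far apart and the lower one was KO replicate 2. Gnl3, nucleostemin, a GTP-binding nucleolar protein known from stem cells, was at 150 and 122 CPM in WT and 120 and 124 CPM in KO (log2 change -0.16, SE 0.16, adjusted p = 0.578). Mybbp1a, a Myb-binding nucleolar protein, was at 197 and 174 CPM in WT and 191 and 159 CPM in KO (log2 change -0.09, SE 0.16, adjusted p = 0.779). For both genes the KO range lay partly within the WT range.

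**Figure D2:**
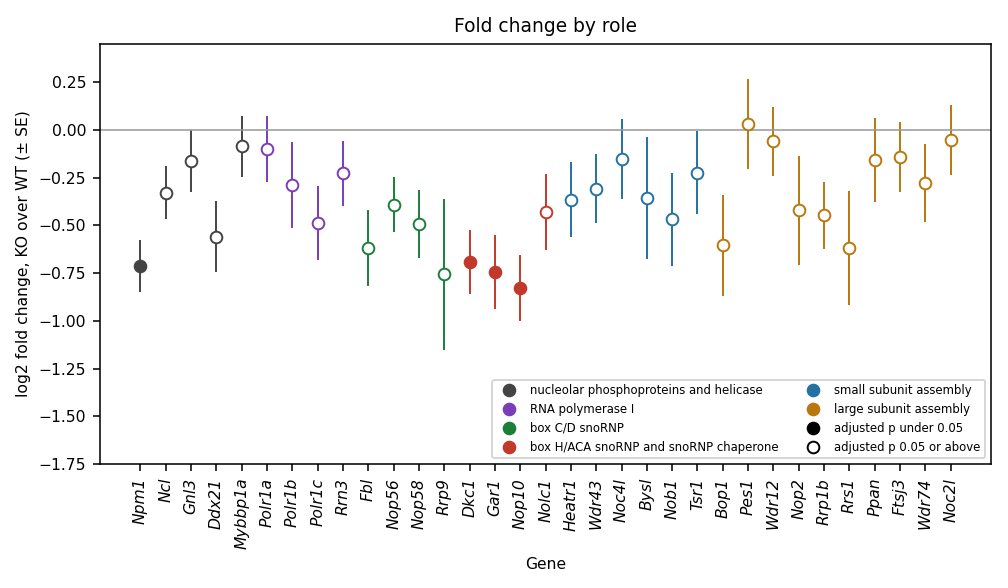
Log2 fold change of KO over WT for each of the 33 genes, coloured by role, with bars of 1 SE. Filled points are the 4 genes with an adjusted p under 0.05, of which 3 are the H/ACA core genes Dkc1, Gar1 and Nop10; Pes1 is the only point above 0.

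The box C/D snoRNP methylates the ribose of rRNA. Its core includes the methyltransferase fibrillarin, encoded by Fbl, with Nop56 and Nop58, and these are the core genes among the 33. Rrp9 binds the U3 snoRNA of the same class. None of these 4 genes passed the edgeR test, and DESeq2 called Fbl lower. At an unadjusted p under 0.05 in edgeR 3 were lower, against 11.4% of all genes tested. In each of the 4, both KO libraries lay below both WT libraries, against 27.6% of all genes tested. Fbl was at 239 and 170 CPM in WT and 152 and 113 CPM in KO (log2 change -0.62, SE 0.20, adjusted p = 0.0835). Nop58 was at 305 and 250 CPM in WT and 227 and 168 CPM in KO (log2 change -0.49, SE 0.18, adjusted p = 0.113). Nop56 was at 445 and 413 CPM in WT and 353 and 301 CPM in KO (log2 change -0.39, SE 0.14, adjusted p = 0.121). In all 3 genes the libraries stood in the same order, with WT replicate 1 highest and KO replicate 2 lowest. Of all genes tested, WT replicate 1 was highest for 27.0% and KO replicate 2 lowest for 30.8%. Rrp9, at 13.3 and 7.89 CPM in WT and 5.47 and 7.06 CPM in KO, had the largest SE of the 33 (log2 change -0.76, SE 0.39, adjusted p = 0.264). The median of the box C/D genes was -0.56, beside -0.72 for the group of H/ACA genes with Nolc1; the difference between the groups was not tested.

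RNA polymerase I makes the rRNA precursor. None of its 4 genes passed in edgeR or DESeq2. At an unadjusted p under 0.05 in edgeR 1, Polr1c, was lower, against 11.4% of all genes tested. Polr1a, the largest subunit, was at 140 and 107 CPM in WT and 116 and 114 CPM in KO (log2 change -0.10, SE 0.17, adjusted p = 0.766), with the KO libraries inside the WT range. Polr1b, the second largest subunit, was at 39.8 and 36.4 CPM in WT and 35.1 and 27.2 CPM in KO (log2 change -0.29, SE 0.23, adjusted p = 0.463). Polr1c, which RNA polymerase III shares, was at 69.3 and 60.3 CPM in WT and 51.0 and 41.4 CPM in KO (log2 change -0.49, SE 0.20, adjusted p = 0.150). Rrn3, the initiation factor that recruits the polymerase to rRNA genes, was at 104 and 93.3 CPM in WT and 91.5 and 77.0 CPM in KO (log2 change -0.23, SE 0.17, adjusted p = 0.439). For Polr1b, Polr1c and Rrn3 both KO libraries lay below both WT libraries, as they did for 27.6% of all genes tested. In these genes the gap between the groups was smaller than that within the KO pair.

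The product of this polymerase has a row of its own in the table, Rn45s, which covers the precursor including the mature rRNAs. Rn45s therefore does not measure synthesis of the precursor, since its counts do not separate precursor from mature rRNA. It took 15.3% and 15.7% of counts in the WT libraries and 14.6% and 9.37% in the KO libraries. The log2 fold change was -0.51 (SE 0.19, edgeR adjusted p = 0.117), and the low KO value came from KO replicate 2, without which it was -0.19. Without KO replicate 1 it was -0.96 (adjusted p = 5.24e-06, from the spread of the WT pair alone), and once the level trend was removed it was -0.03.

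Small subunit factors were 6 of the 33, and none passed in edgeR, in DESeq2 or at an unadjusted p under 0.05. Their median was -0.33. Heatr1, an early factor of precursor transcription and processing, was at 132 and 113 CPM in WT and 112 and 77.6 CPM in KO (log2 change -0.37, SE 0.20, adjusted p = 0.278). Nob1, the nuclease that makes the last cut of the small subunit rRNA, was at 47.1 and 32.0 CPM in WT and 27.4 and 29.8 CPM in KO (log2 change -0.47, SE 0.24, adjusted p = 0.264). Neither gene's groups overlapped, though for Heatr1 the nearest WT and KO libraries were almost level. Wdr43 belongs to the early particle on the precursor, Noc4l assists its nuclear maturation and Tsr1 is a late GTPase-like factor. For Wdr43, Noc4l, Bysl and Tsr1 the fold changes lay between -0.15 and -0.36, with adjusted p from 0.320 to 0.699. Wdr43 was at 184 and 137 CPM in WT and 141 and 117 CPM in KO, and Tsr1 at 52.4 and 47.6 CPM in WT and 49.7 and 35.8 CPM in KO. Both had KO replicate 1 between the WT libraries. Noc4l, at 37.1 and 43.0 CPM in WT and 36.7 and 35.4 CPM in KO, had groups that just failed to overlap. Bysl, an adaptor of late small subunit maturation, was at 23.3 and 16.3 CPM in WT and 19.0 and 11.9 CPM in KO, so its groups overlapped.

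Large subunit factors were 10 of the 33, and none passed in edgeR or DESeq2. At an unadjusted p under 0.05 in edgeR 2 were lower (Bop1 and Rrp1b), against 11.4% of all genes tested. The median of the 10 was -0.22. For 5 of them both KO libraries lay below both WT libraries, against 27.6% of all genes tested. The PeBoW complex, in which Pes1, Bop1 and Wdr12 act together on large subunit rRNA, had fold changes from -0.60 to 0.03. Bop1 was at 24.1 and 23.0 CPM in WT and 16.5 and 14.5 CPM in KO (log2 change -0.60, SE 0.26, adjusted p = 0.185). Pes1 was at 56.0 and 64.4 CPM in WT and 76.8 and 46.1 CPM in KO (log2 change 0.03, SE 0.24, adjusted p = 0.955). Wdr12 was at 76.9 and 65.5 CPM in WT and 64.6 and 71.9 CPM in KO (log2 change -0.06, SE 0.18, adjusted p = 0.871). The KO libraries lay below WT for Bop1, on either side of it for Pes1 and close to it for Wdr12; differences between the 3 genes were not tested.

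Rrs1, a single-exon gene for a factor that brings in the 5S particle, was at 17.2 and 18.4 CPM in WT and 13.1 and 10.01 CPM in KO (log2 change -0.62, SE 0.30, adjusted p = 0.229). Rrp1b, a partner of a nucleolar phosphatase, was at 90.0 and 80.8 CPM in WT and 66.6 and 58.6 CPM in KO (log2 change -0.45, SE 0.18, adjusted p = 0.141). Both had KO libraries below WT, by more than the gap within either pair. Nop2, an rRNA cytosine methyltransferase, was at 65.1 and 36.5 CPM in WT and 45.2 and 30.7 CPM in KO (log2 change -0.42, SE 0.28, adjusted p = 0.386), so its WT libraries differed more than the group means. Ppan and Wdr74 are assembly factors of the nucleolar large subunit precursor, Ftsj3 is an rRNA processing methyltransferase and Noc2l a chaperone of early precursors. Ppan, Ftsj3, Wdr74 and Noc2l had fold changes between -0.05 and -0.28, with adjusted p from 0.431 to 0.887. Ppan was at 33.3 and 32.4 CPM in WT and 30.02 and 28.8 CPM in KO, and Wdr74 at 44.1 and 42.9 CPM in WT and 38.1 and 33.8 CPM in KO, both without overlap. Ftsj3 was at 75.6 and 61.8 CPM in WT and 61.9 and 62.6 CPM in KO, so that only WT replicate 1 stood apart. Noc2l was nearly level across libraries, from 52.5 to 56.6 CPM.

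Levels per kb of exon spanned a wide range. Npm1 led at 1153 CPM per kb in WT and 704 in KO, followed by Nop56 at 225 and 171, Ncl at 223 and 178 and Fbl at 171 and 111. Nop56 and Ncl did not differ in this measure beyond their spread in WT. The lowest were Rrp9 at 6.67 and Bysl at 5.14 CPM per kb in WT. The genes at the top of the order thus encode nucleophosmin, nucleolin and snoRNP core proteins, while the polymerase subunit Polr1b was near the bottom at 8.22 CPM per kb. Exon lengths come from all basic coding transcripts, and a long annotated form, as in Ncl, Nop58 and Wdr12, lowers this value.

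**Figure D3:**
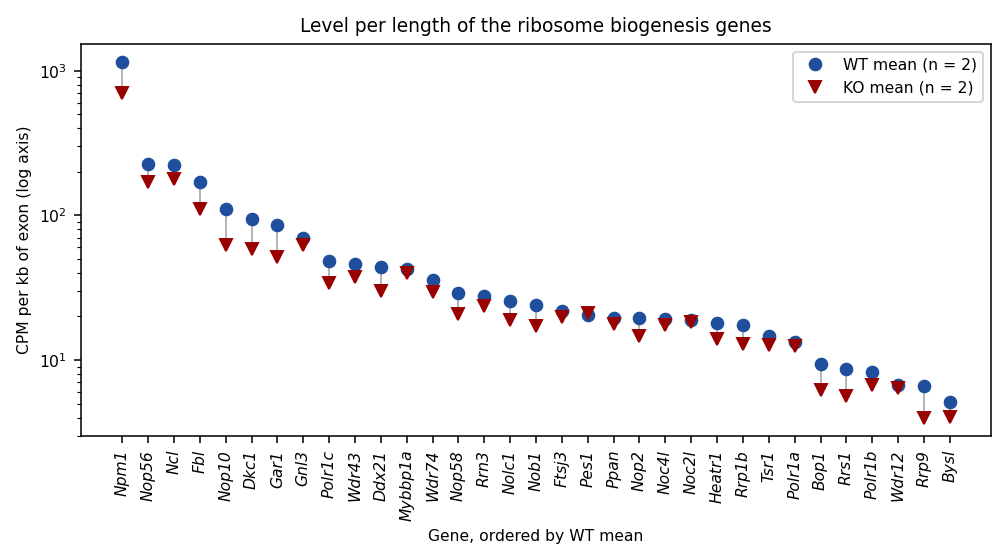
Mean CPM per kb of exon in WT and KO (n = 2 each) on a log axis, with genes ordered by the WT mean. Npm1 stands at 1153 in WT, well above Nop56 at 225, and the KO mark lies below the WT mark for all genes but Pes1.

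A feature not used in choosing the genes is that some host small nucleolar RNAs. In GENCODE, 8 of the 33 genes (24.2%) hold at least 1 annotated snoRNA gene on their own strand, 23 in all. The share was 1.79% of 13119 protein-coding genes tested. In the wider list of biogenesis genes it was 1 of 127 (0.787%). The hosts among the 33 were Ncl, Gnl3, Nop56, Nop58, Dkc1, Wdr43, Tsr1 and Ppan. Nop56 holds 5 and Nop58 holds 4. Snord110 and Snord57 in Nop56 and Snord70 and Snord11 in Nop58 are named as box C/D RNAs, the class these proteins bind. The rest in these genes have Gm names that state no class. The 8 hosts had a median log2 fold change of -0.32 and the other 25 genes one of -0.42. Noncoding snoRNA host genes were listed separately, and 0 of 10 tested passed in edgeR, with a median of 0.07 (at an unadjusted p under 0.05, 0 were lower and 1 higher; DESeq2 called 0). The 33 genes lie on 18 chromosomes. Exons of 11 (33.3%) overlap a gene on the opposite strand, against 25.1% of protein-coding genes tested. Dkc1 with Mpp1 is such a pair. Without a stated strand setting, its reads in the shared exon stretch cannot be told apart from those of its partner.

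The wider pathway was read from a list of 127 other ribosome biogenesis genes, all of them tested. None passed in edgeR, 102 had a negative fold change, and the median was -0.25. At an unadjusted p under 0.05, 23 (18.1%) were lower, against 11.4% of all genes tested, and 0 higher, against 1846 of 14140. DESeq2 called 4 lower (3.15%, against 5.70% of all genes), which were Ddx52, Nhp2l1, Skiv2l2 and Utp11l, named after their values were seen. Without KO replicate 1, edgeR called 16 of the 127 lower (12.6%, against 7.88% of all genes), without KO replicate 2 it called 1, Ddx52, and without either WT library it called 0. The 2 most abundant per length, Rsl1d1 and Rrp1, both large subunit factors, were at 171 and 115 CPM per kb in WT and had fold changes of -0.40 (SE 0.15, adjusted p = 0.113) and -0.30 (SE 0.18, adjusted p = 0.318). By role, negative fold changes were found for 15 of 15 genes of the rRNA exosome and trimming enzymes, 42 of 46 small subunit genes, 9 of 11 snoRNP assembly genes, 30 of 43 large subunit genes and 6 of 12 RNA polymerase I genes, beside 48.8% of all genes tested. Differences between the roles were not tested.

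Myc, the transcription factor best known as an activator of ribosome biogenesis genes, was at 520 and 428 CPM in WT and at 523 and 220 CPM in KO (log2 change -0.35, SE 0.29, adjusted p = 0.492). The KO libraries differed more from each other than from WT, with KO replicate 2 the low one. It was the lowest for 27 of the 33 genes and for 30.8% of all genes tested. Without KO replicate 2 the fold change of Myc was 0.13, and without KO replicate 1 it was -1.11 (adjusted p = 0.000350, again from the spread of the WT pair alone). Of 11 genes of the Myc and Max network 1 rose, Mycl, from 0.581 ± 0.195 to 4.14 ± 1.18 CPM (SD, n = 2 each; edgeR adjusted p = 0.0387), named after its value was seen.

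Markers of division and of other cell types also differed between the groups. Of 30 cell cycle genes 24 fell and 0 rose, with a median of -0.94. Relative to the WT mean, the cell cycle median on the log2 scale was 0.01 and -0.01 in the WT libraries and -0.75 and -0.94 in KO. For the 33 ribosome biogenesis genes the same measure was 0.09 and -0.09 in WT and -0.19 and -0.51 in KO. The cell cycle list thus kept its replicates together, whereas in the ribosome biogenesis genes KO replicate 1 lay nearer to WT replicate 2 than to KO replicate 2.

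**Figure D4:**
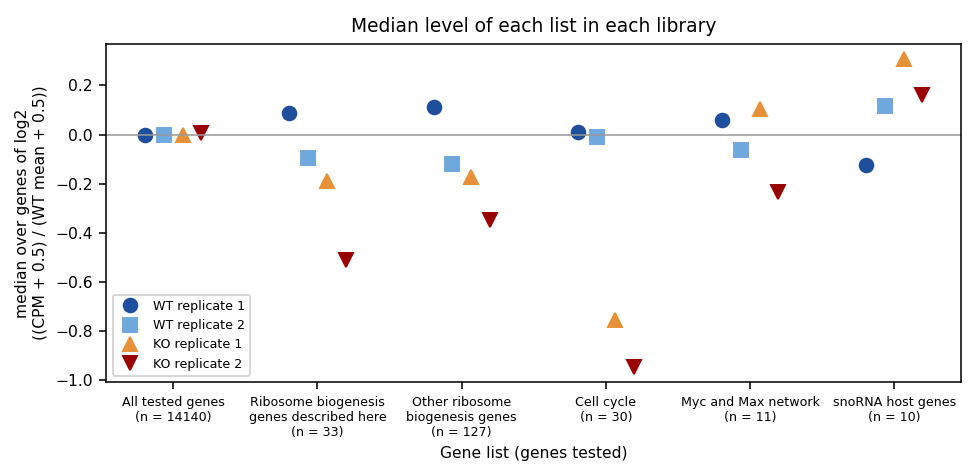
Median over the genes of a list of the log2 ratio of CPM to the WT mean (0.5 added to both), for each library and for 6 sets of genes. The ribosome biogenesis genes step from 0.09 in WT replicate 1 to -0.51 in KO replicate 2, the cell cycle genes fall to -0.75 and -0.94 in both KO libraries, and the median of all tested genes is the same in the 4 libraries to within 0.01.

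Summed levels of 10 dendritic cell markers were 136 CPM in both WT libraries and 1044 and 857 CPM in KO (6 of 9 tested rose). Those of 8 mast cell markers were 20.0 and 17.7 CPM in WT and 218 and 126 CPM in KO (7 of 8 rose). Those of 9 neutrophil markers were 366 and 535 CPM in WT and 1022 and 792 CPM in KO (5 of 9 rose). These 3 sums were above both WT libraries in each KO library, and in each list 1 tested marker was not. Those of 9 B cell markers were 322 and 416 CPM in WT and 97.5 and 67.4 CPM in KO (7 of 9 fell). For 1 of these 9 both KO libraries lay above both WT libraries. No marker of these 4 lists was at 0 in all libraries. Those of 7 erythroblast markers were 59.3 and 303 CPM in WT and 613 and 256 CPM in KO, with Hba-a1 and Hbb-bt at 0 throughout, and those of 7 T cell markers lay between 52.5 and 61.1 CPM in all libraries. The part of cell cycle activity and of cell makeup in the lower ribosome biogenesis genes was not tested.

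Genes of high level had more negative fold changes than the rest in the whole table. Of 2055 genes with a mean of at least 100 CPM over the 4 libraries, 9.10% were called lower and the median was -0.13. Of 12085 genes below that level, 1.97% were called lower and the median was 0.06. Of the 33 ribosome biogenesis genes, 12 were in the upper range, with 2 called (Npm1 and Dkc1) and a median of -0.38, and 21 in the lower range, with 2 called (Gar1 and Nop10) and a median of -0.36. With the trend on expression level removed, the median of the 33 was -0.26, and Npm1 and Nop10 were still called (adjusted p = 0.0471 and 0.0361), while Dkc1 and Gar1 were not (adjusted p = 0.0639 and 0.0804).

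**Figure D5:**
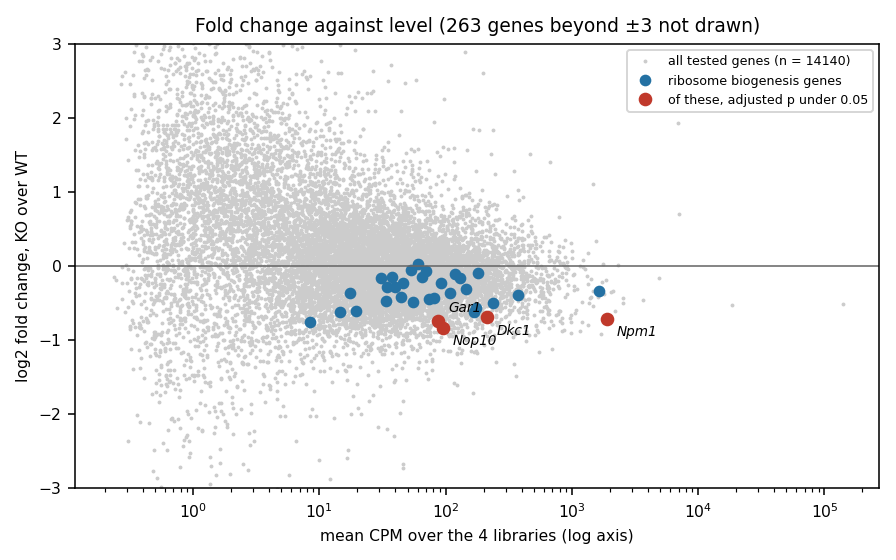
Log2 fold change of KO over WT against mean CPM over the 4 libraries (log axis) for 14140 tested genes (grey; 263 beyond 3 in either direction are not drawn), with the 33 ribosome biogenesis genes in blue and the 4 that passed in red. The 33 genes lie almost entirely below 0 at every level, and Npm1, Dkc1, Gar1 and Nop10 lie between -0.69 and -0.83.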

How the data were processed

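RNA-seq of LSK cells gave 4 libraries. Input was 20 ng of RNA for the NuGEN Ovation Ultralow kit, with 76 sequencing cycles on a NextSeq, per the labels' protocols. The authors deposited raw read counts per gene symbol. Per the submitters' processing notes, TopHat2 2.1.1, SAMtools 1.5, Picard 2.9.4, HTSeq 0.8.0 and build mm10 were used. Annotation, strand setting and duplicate handling: not given in the sources used here.

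Groups came from sample titles. Counts were tested with edgeR 4.0.16 (R 4.3.3; TMM, filterByExpr with minimum count 10 and minimum total 15, quasi-likelihood test, Benjamini-Hochberg over all 14140 genes tested, threshold 0.05). The biological coefficient of variation was 0.266. The members, lists and naming rule (all 33 members, Zfp521, Rn45s, Myc, and of the other biogenesis genes the 4 smallest p-values past the threshold and the 2 most abundant per length) were chosen with earlier results of these data known. Positions, lengths and nested snoRNAs are from the basic set of GENCODE M21 (GRCm38), where 23376 symbols matched directly, 651 by synonym and 394 not. Promoter sequences are from RefSeq. The test was also run on simulated counts, drawn independently for each gene at a constant dispersion. Such counts hold no shift shared by the genes of a library, so they do not cover the steps between libraries seen here. With 2 libraries against 2, an exact permutation test cannot go below p = 0.333. Alternatives were other size factors, DESeq2 1.42.0, other filters, Rn45s left out, the level trend removed, the replicate number as a block, and each library left out.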

Additional observations from a re-analysis of the deposited data

How the results depend on the processing

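Of the 33 genes 26 kept their sign under all 12 alternatives, and the median of the 33 stayed negative in each, from -0.20 to -0.52. The number called lower was 4, and it was 2 with upper quartile factors or with the trend on expression level removed, 7 with no filter on low counts and 0 to 10 with each library left out. For the 127 other biogenesis genes the number was 0, and it was 4 with DESeq2, 8 with no filter and 0 to 16 with each library left out, where the median ran from -0.12 to -0.40. Over all genes 425 were called lower and 533 higher. These counts were 816 and 858 with DESeq2, 987 and 1056 with no filter, 261 lower with the level trend removed, and 95 to 1161 lower and 160 to 997 higher with each library left out; the cause was not tested. Of all calls, 44.4% were lower with TMM, 30.3% with upper quartile factors (289 called lower, median of all genes 0.10) and 37.0% with the level trend removed.

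Signs turned for 7 of the 33 genes. With the level trend removed Mybbp1a was at 0.025, Polr1a at 0.015, Wdr12 at 0.043 and Noc2l at 0.035, and with upper quartile factors Wdr12 was at 0.021 and Noc2l at 0.027. With each library left out, the log2 fold change ran from -0.24 to 0.032 for Mybbp1a, -0.29 to 0.10 for Polr1a, -0.39 to 0.34 for Pes1, -0.19 to 0.054 for Wdr12, -0.80 to 0.053 for Nop2 and -0.30 to 0.0052 for Ftsj3, and from -1.11 to 0.13 for Myc and -0.94 to 0.022 for Nhp2.

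The replicate numbers are not said to pair samples, and deviations of same-numbered samples correlated at 0.0760 over 14140 genes. With the number as a replicate block, 10 of the 33 genes, 16 of the 127 and 1314 of all genes were called lower and 1312 higher, and Pes1 was at -0.0099.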
